A study of Bos taurus with 138 samples.

Results

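The genes described here encode the subunits and factors with which RNA polymerase II starts transcription: Pol II itself, the TFII factors with the TBP-associated factors, and the Mediator complex. They were chosen by symbol alone, as every gene of the table whose symbol starts with POLR2 or GTF2, or with MED or TAF and a digit, other than TAF1A, together with TBP, TBPL1 and TBPL2. That gave 81 of the 16706 gene symbols, namely 13 POLR2 genes, 16 GTF2 genes, 20 TAF genes, 3 genes of the TBP family and 29 Mediator genes. All 81 passed the filter on low counts of the main model, which tested 14612 genes.

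RNA was sequenced from bovine oocytes at the GV and MII stages and from in vitro produced 2-cell, 8-cell, Morula and Blastocyst embryos. All 6 groups go back to oocytes from slaughterhouse ovaries. GV oocytes were collected from follicles, and MII oocytes were matured in vitro. Embryos were also fertilized with semen of a Holstein bull and cultured in vitro, and Grade 1 embryos were taken. Stage and handling therefore change together from GV to MII and from MII to the 2-cell stage. Cycloheximide was added to the cultured oocytes and embryos before collection, and the lysis buffer and gradients held it too. Lysates were separated on sucrose gradients into 10 fractions, F1 to F10, with gradients A and B at each stage. From whole oocytes or embryos of the same batches, 3 transcriptomes per stage (A, B and C) were made. Each library comes from a pool of oocytes or embryos. The study treats F8 to F10 as polysomes, RNA that carries several ribosomes, and adding the counts of these fractions gradient by gradient made 12 polysome pools beside 18 transcriptomes.

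Transcription by Pol II begins when TFIIA, TFIIB, TFIID, TFIIE, TFIIF and TFIIH gather with the polymerase at a promoter, where TFIID, made of TBP and TAF proteins, recognizes the start site and TFIIH opens the DNA. Mediator bridges this assembly and DNA-bound activators: its tail contacts activators, its head and middle contact the polymerase, and its kinase module can detach. The oocyte is transcriptionally silent after growth and lives on stored mRNA, growing mouse oocytes use the TBP relative TBPL2, and in cattle the main activation of the embryonic genome falls at the 8-cell stage.

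Totals of expected counts lay between 1229382 and 17342859 per fraction library, between 3269386 and 11812567 per transcriptome and between 22543733 and 39380640 per polysome pool. The Blastocyst transcriptomes had the lowest totals of the transcriptomes, at most 5256286, against at least 8818270 at the other stages. The part of this depth in the number of Blastocyst calls was not tested. Levels are given as CPM, counts scaled by the library total and TMM factors, and since transcript lengths were not used they are compared within a gene and not between genes. A rise or fall is thus relative to the other RNA of the library. It does not give the amount of a transcript per oocyte or embryo, also between GV and MII oocytes. The labels do not say that letters of gradients and transcriptomes belong together, and the design text calls the gradients biological duplicates and the transcriptomes triplicates, so p-values measure the spread between these samples. The 30 libraries of the main model share an estimate of the spread for each gene. A p-value between polysome pools therefore does not rest on the spread of those pools alone. All 8 oocyte markers were above 1 CPM in GV transcriptomes, with a summed level of 15219 to 16421 CPM, against 429 to 807 CPM at the 8-cell stage. In Blastocyst transcriptomes they summed to 41.0 to 733 CPM, a wide range between libraries of a stage. The 8 blastocyst lineage markers summed to 60.5 to 72.0 CPM in GV and to 4888 to 5585 CPM in Blastocyst transcriptomes, where the mean of SOX17 was under 1 CPM. Markers of cumulus and granulosa cells, 9 genes, summed to 521 to 653 CPM in GV transcriptomes and 903 to 946 CPM in GV polysome pools, with FSHR, CYP11A1, FOXL2 and TNFAIP6 under 1 CPM in both. Their sum went from 340 to 384 CPM at the 2-cell stage to 146 to 309 CPM at the 8-cell stage in transcriptomes, and from 766 to 1059 CPM to 82.0 to 126 CPM in polysome pools. The methods state that cumulus cells were taken off, and the part of these markers in the results was not tested. The gradients of a stage differed by over 4-fold (on CPM plus 0.5) for 15 of the 81 members at the 8-cell stage and for 15 at the Morula stage, against 26.1% and 23.1% of all genes, and for 0 to 4 members at the other stages. In these bulk samples, fewer cells of a type and less RNA per cell cannot be told apart.

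The first comparison set polysome pools against whole-cell transcriptomes. Its differences were mostly shared with the free RNA and monosome fractions of the gradient, so higher or lower in polysomes here means higher or lower in the pools than in the transcriptome, and not than in other fractions. From GV to Morula the share of members higher in polysomes lay near that of all genes and the share lower lay above it, and these shares were not tested against each other. In GV oocytes, 21 members were higher in polysomes (22.2% of all genes were) and 34 were lower (17.7% of all genes). In MII oocytes 26 were higher and 32 lower, against 30.8% and 26.7% of all genes, and in 2-cell embryos 25 were higher and 31 lower, against 29.1% and 21.9%. In 8-cell embryos 24 were higher and 29 lower, against 28.0% and 31.0%, and these counts became 19 and 35 when DESeq2 size factors replaced TMM scaling. In Morula embryos 25 were higher and 28 lower (26.5% and 25.2% of all genes), and in Blastocyst embryos 23 were higher and 14 lower (20.0% and 20.1%). The median log2 difference of the members was -0.61 in GV, -0.65 in MII, -0.72 at the 2-cell stage, -0.77 at the 8-cell stage, -0.29 in Morula and -0.22 in Blastocyst embryos. The medians over all genes were 0, 0, 0.18, -0.26, 0 and -0.08 in the same order. DESeq2 size factors moved these medians over all genes by -0.17 at the 2-cell stage, -0.24 at the 8-cell stage, -0.11 in Morula and -0.15 in Blastocyst embryos.

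The offset from the transcriptome was also present outside polysomes. Of the 144 calls of a member as higher in polysomes over the 6 stages, the mean level was above that of the transcriptome in both F1 to F2 (free RNA) and F3 to F5 (monosomes) for 128, and of the 168 calls as lower it was below in both for 163. In GV oocytes TAF10 averaged 2346 CPM in F1 to F2, 378 CPM in F3 to F5 and 416 CPM in F8 to F10, against 153 CPM in transcriptomes. The levels of fractions and of transcriptomes were scaled in separate sets. A place in polysomes and the difference between gradient and whole-cell libraries cannot be told apart by this comparison, and the one between polysome and monosome pools, within the gradients, is given further on.

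Few members changed sides in the comparison with the transcriptome. At all 6 stages, 12 members were higher in polysomes (9.92% of all genes): GTF2H4, MED9, MED15, MED20, MED27, MED29, POLR2E, POLR2G, POLR2L, TAF6, TAF6L and TAF10. At all 6 stages, 8 members were lower in polysomes (5.78% of all genes): GTF2A1, GTF2A1L, GTF2F2, MED4, MED13, POLR2K, TAF1B and TAF5. A further 7 members were higher at 5 stages and lower at none, and 14 were lower at 5 stages and higher at none. In all, 6 members (MED12, MED18, MED25, POLR2C, POLR2D and POLR2H) were higher at some stages and lower at others. GTF2IRD1, MED1, MED12L, MED13L, MED23, TAF3 and TBPL2 passed the test at no stage. The share of all genes was not counted for the patterns with 5 stages, with both sides or with no call. Whether the members keep to a side more often than other genes was thus not tested.

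**Figure D1:**
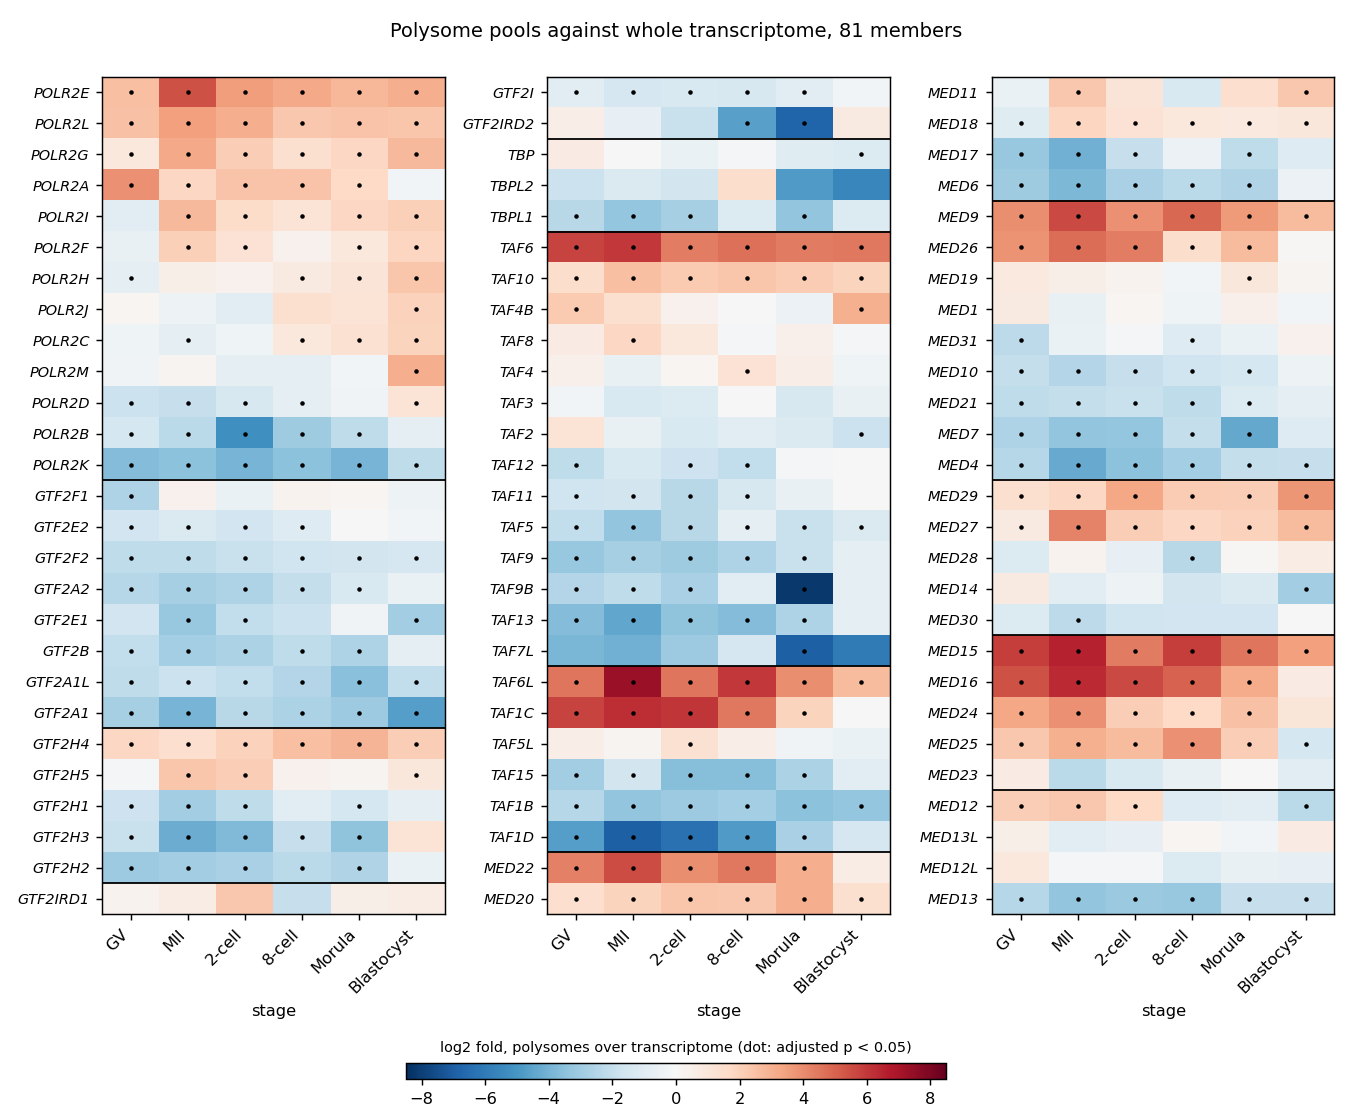
Log2 fold of polysome pools over transcriptomes for each of the 81 members (rows, grouped by role with black lines between roles) at the 6 stages (columns), from 2 polysome pools and 3 transcriptomes per stage, with a dot where the adjusted p is below 0.05. MED15, MED16, TAF6 and TAF6L are red at the first 5 stages, TFIIA, TFIIB and TFIIF genes are mostly blue, and fewer dots stand in the Blastocyst column, where 37 members passed the test. Transcriptomes of that stage had the lowest total counts.

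All 3 genes of the TBP family fell in the transcriptome from the 2-cell to the 8-cell stage. TBPL2, the TBP relative of the growing oocyte, fell from 63.1, 47.7 and 38.6 CPM in the 2-cell transcriptomes A, B and C to 1.29, 1.79 and 1.30 CPM at the 8-cell stage (log2 fold -5.09, SE 1.02, adjusted p = 0.000283). It had stood at 105, 150 and 119 CPM in GV oocytes and at 41.6, 36.0 and 42.9 CPM in MII oocytes, and it was at or below 0.588 CPM in all Morula and Blastocyst transcriptomes. The 8-cell transcriptomes thus lay below every transcriptome of the first 3 stages. In polysomes TBPL2 was at 37.7 and 33.1 CPM in GV gradients A and B, at 7.10 and 26.9 CPM in MII and at 15.6 and 18.1 CPM at the 2-cell stage. At the 8-cell stage the gradients disagreed, with 0 CPM in A and 8.08 CPM in B, and from Morula on all 4 pools were at 0.

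TBPL1, a TBP relative that does not bind the TATA box, fell at both steps from the 2-cell stage to Morula. Its transcriptome level rose from 620, 863 and 730 CPM in GV to 2029, 1740 and 2452 CPM in MII oocytes (log2 fold 1.49, SE 0.44, adjusted p = 0.0176). It fell from 1279, 1147 and 1009 CPM at the 2-cell stage to 273, 326 and 344 CPM at the 8-cell stage (log2 fold -1.86, SE 0.44, adjusted p = 0.00125), and again to 80.0, 89.8 and 106 CPM in Morula embryos (log2 fold -1.77, SE 0.44, adjusted p = 0.00754). The stages did not overlap at either step. In polysomes TBPL1 stayed between 80.9 and 223 CPM in all 8 pools from GV to the 8-cell stage, and the change from the 2-cell to the 8-cell stage was -0.16 (SE 0.53, adjusted p = 0.852). It then fell to 14.5 and 3.62 CPM in Morula pools (log2 fold -3.99, SE 0.60, adjusted p = 2.59e-05). Its polysome level was below that of the transcriptome in GV, MII, 2-cell and Morula samples, by -3.29 on the log2 scale in MII oocytes (SE 0.55, adjusted p = 2.14e-05).

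TBP itself moved less. Its transcriptome level fell from 69.8, 75.1 and 86.9 CPM at the 2-cell stage to 27.6, 29.8 and 42.7 CPM at the 8-cell stage (log2 fold -1.21, SE 0.39, adjusted p = 0.0119), and it was at 25.5 to 29.0 CPM in Morula and 32.3 to 50.6 CPM in Blastocyst embryos. Before that it had been at 42.8, 34.5 and 42.9 CPM in GV and at 61.6, 67.6 and 56.0 CPM in MII oocytes. Polysome levels of TBP were 68.4 and 60.9 CPM in GV, 39.8 and 88.8 in MII, 44.2 and 59.4 at the 2-cell stage, 16.5 and 42.2 at the 8-cell stage, 6.80 and 20.2 in Morula and 21.3 and 14.6 CPM in Blastocyst pools. The polysome change from the 2-cell to the 8-cell stage was -0.82 (adjusted p = 0.158). Against the transcriptome, TBP was lower in polysomes in Blastocyst embryos (log2 fold -1.17, SE 0.45, adjusted p = 0.0396), and the other 5 stages did not pass the test.

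**Figure D2:**
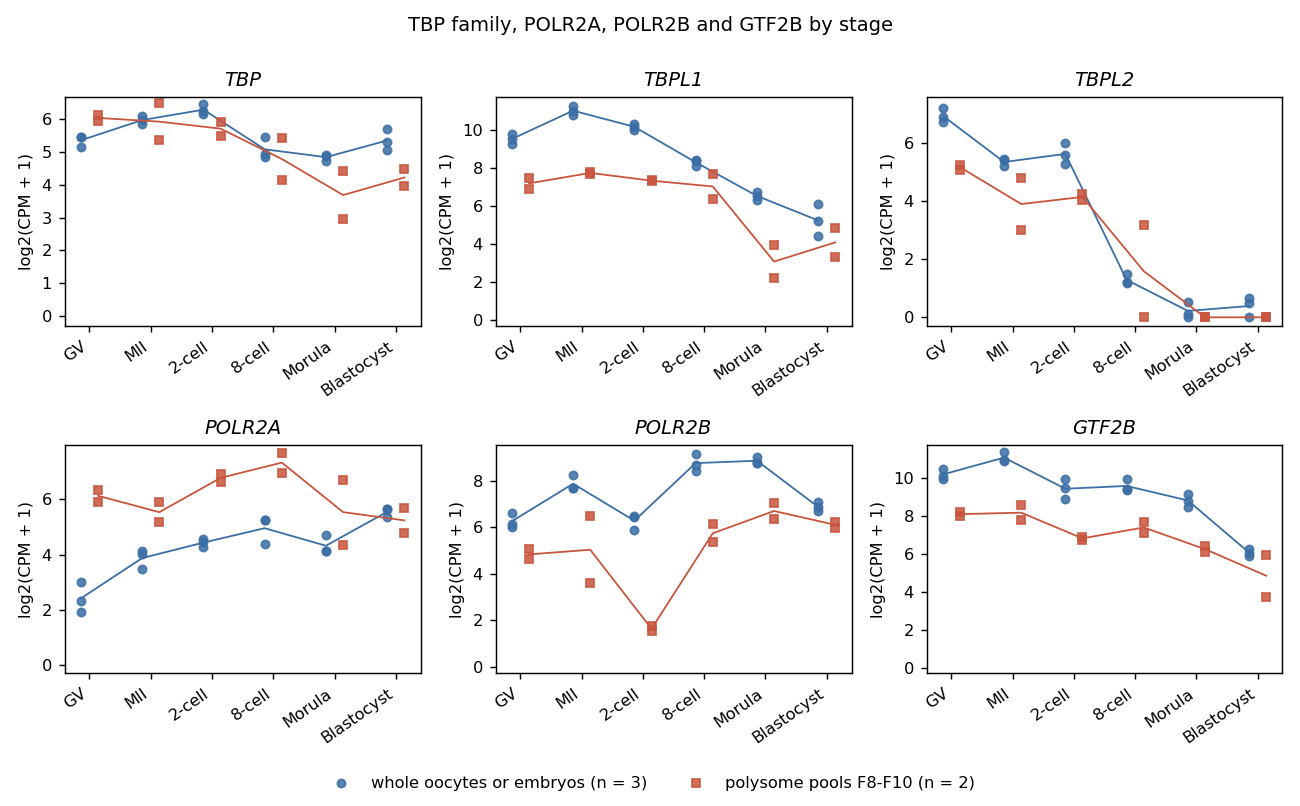
Levels of TBP, TBPL1, TBPL2, POLR2A, POLR2B and GTF2B as log2(CPM + 1) at the 6 stages, with a point for each of 3 transcriptomes and each of 2 polysome pools per stage and lines through the means. TBPL2 drops from between 38.6 and 63.1 CPM in 2-cell transcriptomes to between 1.29 and 1.79 CPM at the 8-cell stage, and POLR2B rises from 2.31 and 1.88 CPM to 68.7 and 39.4 CPM in polysomes over the same step.

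Of the 13 Pol II genes, 4 were higher in polysomes in GV and 6, 6, 7, 8 and 10 at the later stages in order, beside 22.2%, 30.8%, 29.1%, 28.0%, 26.5% and 20.0% of all genes, and the differences between stages were not tested. The number lower was 4, 4, 3, 3, 2 and 1, beside 17.7%, 26.7%, 21.9%, 31.0%, 25.2% and 20.1% of all genes. Median log2 differences of the 13 genes were -0.36, 0.50, 0.36, 0.92, 1.14 and 1.98. POLR2E, a subunit shared by Pol I, Pol II and Pol III, stood at 35.8, 38.8 and 27.4 CPM in MII transcriptomes and at 693 and 2243 CPM in MII pools (log2 fold 5.43, SE 0.35, adjusted p = 9.11e-12). POLR2K, another shared subunit, was on the other side at every stage. At the Morula stage it was at 433, 501 and 620 CPM in transcriptomes and at 39.7 and 27.1 CPM in pools (log2 fold -3.95, SE 0.66, adjusted p = 2.78e-05).

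POLR2A and POLR2B, the large subunits that form the active centre, lay on opposite sides. POLR2A, which carries the C-terminal repeat domain, was at 6.98, 2.77 and 4.05 CPM in GV transcriptomes against 59.0 and 80.8 CPM in GV pools (log2 fold 3.92, SE 0.53, adjusted p = 2.3e-06). It remained higher in polysomes in MII (1.75), 2-cell (2.40), 8-cell (2.40) and Morula samples (1.67), while the difference in Blastocyst embryos was -0.26 (adjusted p = 0.719). Its transcriptome level was 16.4, 15.2 and 10.2 CPM in MII, 21.1, 18.5 and 22.4 at the 2-cell stage, 20.0, 36.8 and 36.7 at the 8-cell stage, 24.9, 16.5 and 16.6 in Morula and 40.0, 49.3 and 49.0 CPM in Blastocyst embryos. The whole-embryo level was thus lowest in GV oocytes and highest in blastocysts, with 8-cell and blastocyst values apart from each other. Its pools held 58.5 and 35.2 CPM in MII, 99.1 and 119 at the 2-cell stage, 124 and 206 at the 8-cell stage, 19.6 and 104 in Morula and 50.6 and 26.6 CPM in Blastocyst embryos.

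POLR2B was furthest below its transcriptome in 2-cell embryos. There its transcriptomes held 88.6, 86.3 and 57.9 CPM and its pools 2.31 and 1.88 CPM, a 37.0-fold difference (log2 fold -5.21, SE 0.61, adjusted p = 2.07e-07). It was as low in the other 2-cell fractions, with means of 3.03 CPM in F1 to F2, 2.68 in F3 to F5, 2.50 in F6 to F7 and 1.96 CPM in F8 to F10, so the gap was not particular to polysomes. The MII pools had held 11 and 87.0 CPM, and the fall to the 2-cell stage in polysomes was -4.54 (SE 0.61, adjusted p = 6.99e-05). From the 2-cell to the 8-cell stage POLR2B rose in transcriptomes to 342, 571 and 403 CPM (log2 fold 2.50, SE 0.45, adjusted p = 6.81e-05) and in polysomes to 68.7 and 39.4 CPM (log2 fold 4.69, SE 0.61, adjusted p = 1.89e-06). No 2-cell value overlapped an 8-cell value in either kind of library.

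POLR2L, a small subunit shared by the nuclear polymerases, had the largest rise among Pol II genes. Its transcriptome level was 20.3, 14.5 and 5.0 CPM in MII, 1.29, 2.00 and 2.03 CPM at the 2-cell stage and 68.8, 140 and 109 CPM at the 8-cell stage (log2 fold from 2-cell to 8-cell 5.90, SE 0.58, adjusted p = 1.35e-08). The pools went from 77.6 and 215 CPM in MII to 17 and 13.3 CPM at the 2-cell stage and to 642 and 400 CPM at the 8-cell stage (log2 fold 5.10, SE 0.66, adjusted p = 1.72e-06). POLR2L thus reached its lowest values in 2-cell embryos in both kinds of library. In the same step POLR2B, POLR2D, POLR2E, POLR2F, POLR2G, POLR2I, POLR2K and POLR2L, 8 of the 13 genes, rose in both the transcriptome and polysomes (16.2% of all genes), with polysome log2 folds from 1.09 for POLR2E to 5.10. POLR2J, part of the platform on which the polymerase is assembled, fell in the transcriptome (log2 fold -2.32, SE 0.60, adjusted p = 0.00259), from 247, 248 and 508 CPM to 42.4, 84.1 and 74.4 CPM.

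No gene of TFIIA, TFIIB, TFIIE or TFIIF was higher in polysomes at any stage. Of these 8 genes, 7 were lower in polysomes in GV, 7 in MII, 7 at the 2-cell stage, 6 at the 8-cell stage, 5 in Morula and 4 in Blastocyst embryos. Of all genes, 17.7%, 26.7%, 21.9%, 31.0%, 25.2% and 20.1% were lower in the same order, and 20.0% to 30.8% were higher. These shares were not tested against each other. The median log2 differences of the 8 genes were -2.15, -2.49, -2.10, -1.90, -1.44 and -1.13, and they kept this sign with DESeq2 size factors. GTF2B, the single protein of TFIIB that sets the polymerase on the start site, was at 989, 1428 and 1093 CPM in GV transcriptomes and at 290 and 253 CPM in GV pools. Its transcriptome level was 1960, 1897 and 2637 CPM in MII, 971, 694 and 480 at the 2-cell stage, 664, 962 and 686 at the 8-cell stage, 358, 434 and 576 in Morula and 65.6, 57.2 and 75.6 CPM in Blastocyst embryos. Pools held 218 and 375 CPM in MII, 119 and 104 at the 2-cell stage, 207 and 134 at the 8-cell stage, 84.0 and 66.7 in Morula and 60.6 and 12.4 CPM in Blastocyst embryos. In pools GTF2B was therefore below its transcriptome from GV to Morula, by -2.11 in GV to -2.87 in MII on the log2 scale, with no call in Blastocyst embryos (-0.86), where the transcriptome had fallen (log2 fold from Morula -2.79, SE 0.40, adjusted p = 1.8e-05).

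The TFIIA paralogs GTF2A1 and GTF2A1L, the latter a germ cell form, were both lower in polysomes than in the transcriptome at all 6 stages. Within GV gradients GTF2A1L was highest in F8 to F10, with a mean of 99.2 CPM against 19.3 CPM in F3 to F5. There GTF2A1 was highest in F3 to F5, at 8.34 CPM against 4.49 CPM in F8 to F10. GTF2A1 showed the widest gap in Blastocyst embryos, at 83.2, 77.5 and 92.4 CPM in transcriptomes and 2.70 and 3.79 CPM in pools (log2 fold -4.70, SE 0.46, adjusted p = 3.61e-08). GTF2A1L was at 400, 542 and 432 CPM in GV transcriptomes and at 77.0, 53.5 and 86.2 CPM in Blastocyst ones. GTF2F2, a TFIIF subunit, fell from the 2-cell to the 8-cell stage in the transcriptome (-1.89) and in polysomes (-1.70).

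TFIIH, which melts the promoter and phosphorylates the polymerase, was split. GTF2H4 was higher in polysomes at all 6 stages, and in Morula embryos it stood at 13, 13.6 and 18.6 CPM in transcriptomes and 65.6 and 153 CPM in pools (log2 fold 2.86, SE 0.44, adjusted p = 1.12e-05). GTF2H2 and GTF2H3 were lower from GV to Morula. GTF2H3 fell in the transcriptome from 74.9, 57.9 and 81.2 CPM in Morula to 5.0, 2.49 and 5.40 CPM in Blastocyst embryos (log2 fold -4.06, SE 0.55, adjusted p = 9.11e-06). GTF2H1, GTF2H2 and GTF2H4 rose in both kinds of library from the 2-cell to the 8-cell stage, with log2 folds of 1.77, 1.24 and 1.11 in the transcriptome and 3.05, 1.71 and 1.67 in polysomes. Of the 5 TFIIH genes outside the symbol rule (ERCC2, ERCC3, CDK7, CCNH and MNAT1), 0 rose and 4 fell in the transcriptome in that step (26.6% and 23.5% of all genes). In polysomes 0 rose and 1 fell (21.0% and 25.2% of all genes).

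The TFII-I family holds DNA-binding regulators rather than general factors. GTF2I was lower in polysomes from GV to Morula by -0.95 to -1.40 on the log2 scale. GTF2IRD2, a paralog of GTF2I, was at 15.1, 3.94 and 4.0 CPM in 8-cell transcriptomes against 0 and 0.596 CPM in pools (log2 fold -4.62, SE 1.51, adjusted p = 0.0121), a call that was lost without 8-cell polysomes A and with only the groups compared. GTF2IRD1 is described with the difference of changes.

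Among the 14 TAF genes of TFIID, 3 were higher and 6 lower in polysomes in GV (22.2% and 17.7% of all genes). At the 8-cell stage 3 were higher and 5 lower (28.0% and 31.0% of all genes), and these shares were not tested against each other. TAF6, a histone-fold subunit, was higher at all 6 stages. It was at 1.97, 0.820 and 1.22 CPM in GV transcriptomes and 74.3 and 74.0 CPM in GV pools (log2 fold 5.77, SE 0.87, adjusted p = 1.07e-05), with log2 folds of 4.40 in Morula and 4.51 in Blastocyst embryos. Its paralog TAF6L, a SAGA subunit, had the largest difference upward of all members, in MII oocytes, at 0.572, 1.82 and 0.952 CPM in transcriptomes and 131 and 233 CPM in pools (log2 fold 7.33, SE 0.49, adjusted p = 1.63e-11). At the 8-cell stage TAF6L was at 3.34, 3.32 and 3.65 CPM against 210 and 229 CPM (log2 fold 5.99, SE 0.46, adjusted p = 2.59e-10). The lowest pool exceeded the highest transcriptome in each of these cases. Other fractions were above the transcriptome as well, and TAF6L averaged 69.3 CPM in F1 to F2 and 104 CPM in F3 to F5 in MII oocytes, and at the 8-cell stage 679 CPM in F3 to F5 against 199 CPM in F8 to F10. TAF10, shared by TFIID and SAGA, was also higher at all 6 stages, by up to 2.56 on the log2 scale, in MII oocytes.

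TAF13 and TAF11, which pair through their histone folds, were lower in polysomes. TAF13 was at 13, 16.5 and 13.7 CPM in GV transcriptomes and 1.39 and 0.784 CPM in GV pools (log2 fold -3.72, SE 0.49, adjusted p = 1.71e-06). At the 8-cell stage it was at 92.5, 161 and 132 CPM against 8.00 and 12.1 CPM (log2 fold -3.68, SE 0.48, adjusted p = 9.35e-07). Between the 2-cell and the 8-cell stage both levels had risen, by 2.74 in the transcriptome and 2.47 in polysomes on the log2 scale. TAF11 rose from 11, 7.91 and 8.57 CPM in 2-cell to 193, 304 and 200 CPM in 8-cell transcriptomes (log2 fold 4.66, SE 0.43, adjusted p = 5.93e-09), and from 1.14 and 2.43 CPM to 80.5 and 101 CPM in pools (log2 fold 5.66, SE 0.56, adjusted p = 4.02e-08). TAF9, the histone-fold partner of TAF6, rose as well (2.59 and 2.94). TAF12 fell in the transcriptome (log2 fold -1.53), from 143, 133 and 127 CPM to 45.5, 46.2 and 47.6 CPM. In polysomes it went from 41.7 and 38.1 CPM to 0.697 CPM in A and 20.9 CPM in B (log2 fold -1.88, SE 0.74, adjusted p = 0.0402), a call lost without 8-cell polysomes A or either 2-cell pool, with a replicate block, with fractions scaled to the same total and with only the groups compared.

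The TAF paralogs differed in stage. TAF4 fell in the transcriptome from 19.3, 20.7 and 25.7 CPM at the 2-cell stage to 5.23, 6.18 and 5.57 CPM at the 8-cell stage (log2 fold -1.95), while TAF4B, a gonadal form, rose from 5.02, 3.76 and 3.08 CPM to 12.9, 23.8 and 17.2 CPM (log2 fold 2.18). TAF9B fell in the transcriptome from 52.3, 51.1 and 38.1 CPM to 11, 4.84 and 7.13 CPM (log2 fold -2.62, SE 0.72, adjusted p = 0.00384), opposite to TAF9. In Morula pools TAF9B was at 0 and 0.0288 CPM, 1 count in all, against 5.69, 7.60 and 8.08 CPM in transcriptomes. The ratio of transcriptomes to pools was 394, with a 95% counting interval of 69.9 to 15612 that covers counting error only. TAF7L, a germ cell TAF, held 2 counts over the 2-cell transcriptomes and 94 over the 8-cell ones (1.11, 5.47 and 1.74 CPM), a ratio of 53.3 with a counting interval of 14.4 to 447, a call lost without 2-cell transcriptome A or B or 8-cell transcriptome B. In polysomes it was seen only in 8-cell gradient B (2.06 CPM), which over both pools is at least 28.3-fold above the floor of 3 counts in the 2-cell pools, and this rise was lost without that pool or without either 2-cell pool. At the Morula stage its 2 pools were at 0 and the transcriptomes at 0.373, 0.447 and 1.72 CPM, at least 14.8-fold lower in polysomes against the floor, a call lost without either pool or without Morula transcriptome C.

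The other TAF genes belong to other complexes, TAF1B, TAF1C and TAF1D to the promoter factor SL1 of Pol I and TAF5L and TAF6L to SAGA, while TAF15 is an RNA-binding protein. TAF1C and TAF1D lay at opposite ends. TAF1C was at 2.05, 1.44 and 2.86 CPM in 2-cell transcriptomes and 155 and 127 CPM in pools (log2 fold 6.06, SE 0.53, adjusted p = 2.54e-09). TAF1D was at or below 4.06 CPM before the 8-cell stage, with 0.761, 0.719 and 0.226 CPM in 2-cell transcriptomes and at 0 in both 2-cell pools, so at least 12.9-fold lower in polysomes against the floor of 3 counts, a call lost without either pool. It then rose to 136, 179 and 119 CPM in 8-cell transcriptomes (log2 fold 7.98, SE 1.14, adjusted p = 4.12e-06). In 8-cell pools it was at 0 in gradient A and 10.2 CPM in gradient B, which over both pools is at least 139.7-fold above the 2-cell floor, and the rise was lost without gradient B. Morula pools held 25.3 and 8.31 CPM, against 108, 108 and 117 CPM in transcriptomes, and Blastocyst pools 43.2 and 16.1 CPM against 72.9, 86.4 and 78.2 CPM. TAF1D was lower in polysomes at the 8-cell stage (log2 fold -4.82, SE 1.14, adjusted p = 0.00106, lost with only the groups compared), as it had been in GV (-4.69, lost without GV polysomes B) and in MII oocytes, where the pools held 1 count and the ratio was 171 with a counting interval of 29.9 to 6846. TAF15 was at 34.9, 80.6 and 89.9 CPM in 8-cell transcriptomes against 5.91 and 5.15 CPM in pools (log2 fold -3.63, SE 0.63, adjusted p = 3.6e-05). TAF1B was lower at all 6 stages, by -3.32 on the log2 scale in Blastocyst embryos (SE 0.69, adjusted p = 0.000487). TAF5 was lower at all 6 stages, whereas its paralog TAF5L was higher at the 2-cell stage (1.27) and not called at the others.

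In Mediator most tail genes were higher in polysome pools than in the transcriptome. Of the 5 tail genes, 4 (MED15, MED16, MED24 and MED25) were higher in polysomes at each of the first 5 stages and 0 were lower, with median log2 differences of 3.31, 3.87, 2.68, 3.86 and 2.47. In Blastocyst embryos 1 was higher and 1 lower, with a median of 0.69. Of all genes, 22.2%, 30.8%, 29.1%, 28.0%, 26.5% and 20.0% were higher from GV to Blastocyst, and these shares were not tested against each other. MED15 was at 3.72, 2.56 and 1.01 CPM in GV transcriptomes and 131 and 162 CPM in GV pools (log2 fold 5.89, SE 0.57, adjusted p = 2.16e-08). At the 8-cell stage it was at 2.14, 1.34 and 1.74 CPM against 133 and 72.1 CPM (log2 fold 5.87, SE 0.58, adjusted p = 1.2e-08), and the log2 folds were 6.54 in MII and 4.56 in Morula samples. MED15 was at or below 10.9 CPM in all 18 transcriptomes, and it fell in the transcriptome from 8.44, 6.63 and 10.9 CPM at the 2-cell stage (log2 fold -2.31, SE 0.49, adjusted p = 0.000457). MED16 was at 4.79, 4.88 and 7.52 CPM in 2-cell transcriptomes against 350 and 215 CPM in pools (log2 fold 5.62, SE 0.58, adjusted p = 2.65e-08), and at 5.74, 3.50 and 3.83 CPM against 200 and 87.6 CPM at the 8-cell stage (log2 fold 5.04, SE 0.57, adjusted p = 8.78e-08). MED23 was the tail gene with no call at any stage. MED15, MED16 and MED24 were not highest in polysomes within GV gradients, where MED16 averaged 468 CPM in F1 to F2, 417 in F3 to F5 and 228 CPM in F8 to F10. MED15 averaged 232 CPM in F3 to F5 and 140 CPM in F8 to F10 there, and MED24 172 and 79.2 CPM.

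The head and middle of Mediator were mixed. In the head, MED20 and MED22 were higher and MED6, MED17 and MED18 lower in polysomes in GV oocytes. In the middle, MED9 and MED26 were higher while MED4, MED7, MED10 and MED21 were lower from GV to Morula. MED9 was at 4.88, 7.08 and 9.13 CPM in 8-cell transcriptomes and 245 and 173 CPM in pools (log2 fold 4.89, SE 0.54, adjusted p = 6.26e-08). It rose from the 2-cell stage in both, from 0.304, 0.879 and 0.752 CPM in transcriptomes (log2 fold 3.43, SE 0.52, adjusted p = 7.57e-06) and from 11 and 7.97 CPM in pools (log2 fold 4.46, SE 0.62, adjusted p = 4.2e-06). MED17, a head subunit that touches the polymerase, went from 19.2, 23.1 and 20.1 CPM to 35, 38.8 and 41.4 CPM in transcriptomes (0.88, adjusted p = 0.0887) and rose from 6.84 and 3.91 CPM to 42.7 and 11.7 CPM in polysomes (log2 fold 2.34, adjusted p = 0.0014).

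Of the backbone gene MED14 and MED27 to MED30, MED27 and MED29 were higher in polysomes at all 6 stages. MED29 was at 38.5, 28.6 and 37.6 CPM in Blastocyst transcriptomes and 483 and 459 CPM in pools (log2 fold 3.76, SE 0.36, adjusted p = 2.33e-08). MED27 fell from the 2-cell to the 8-cell stage in the transcriptome (-1.82), from 179, 163 and 160 CPM to 53.5, 40.8 and 47.6 CPM, and in pools, from 698 and 719 CPM to 179 and 147 CPM (log2 fold -2.12, SE 0.28, adjusted p = 1.81e-06). MED14, the scaffold of the complex, fell in pools from 98.3 and 72.0 CPM to 3.20 and 26.4 CPM (log2 fold -2.52, SE 0.79, adjusted p = 0.0122), a call lost without 8-cell polysomes A or 2-cell polysomes A, and its transcriptomes were at 118, 123 and 105 CPM and then at 42.2, 47.1 and 44.2 CPM (-1.37, not called). In the kinase module MED13 was lower in polysomes at all 6 stages, MED12 was higher in GV, MII and 2-cell samples and lower in Blastocyst embryos, and the paralogs MED12L and MED13L had no call. Of the partners CDK8, CDK19 and CCNC, cyclin C (CCNC) rose from the 2-cell to the 8-cell stage in the transcriptome (log2 fold 5.67) and in polysomes (6.48), and CDK8 fell in the transcriptome (-2.10).

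From the 2-cell to the 8-cell stage, across genome activation, 44 members changed in the transcriptome and 26 in polysomes. In the transcriptome 27 members rose and 17 fell, against 26.6% and 23.5% of all genes. In polysomes 20 rose and 6 fell, against 21.0% and 25.2% of all genes, or 19 and 10 with DESeq2 size factors, which moved the median over all genes by -0.16. The rises in polysomes were 24.7% of the members, and without 8-cell polysomes B the split was 18 and 13. Both the transcriptome and polysomes rose for 19 members (16.2% of all genes), both fell for 3, GTF2F2, MED27 and TAF12 (13.6% of all genes), and 0 members moved in opposite directions (0.931% of all genes). The members that rose in both were 8 Pol II genes, GTF2H1, GTF2H2, GTF2H4, TAF1D, TAF7L, TAF9, TAF11, TAF13, MED9, MED29 and MED31. A further 8 members rose in the transcriptome alone by these calls (GTF2H5, GTF2IRD1, GTF2IRD2, MED11, MED12, MED28, TAF4B and TAF8) and 14 fell there alone, among them the whole TBP family. In polysomes alone, MED17 rose and GTF2A1L, MED14 and MED26 fell, and 33 members passed in neither. When only the 2 polysome groups compared were fitted, 13 members passed in polysomes in place of 26.

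**Figure D3:**
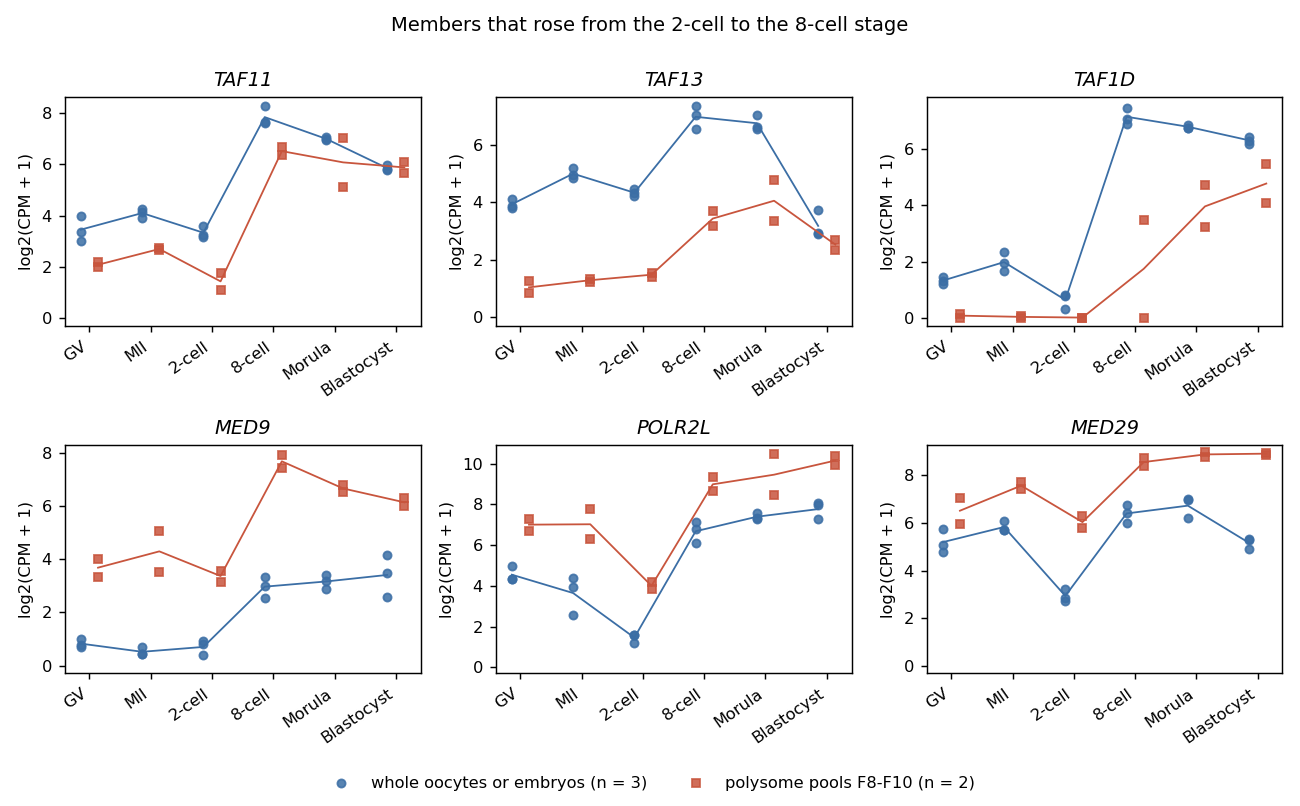
Levels as log2(CPM + 1) of TAF11, TAF13, TAF1D, MED9, POLR2L and MED29 at the 6 stages, with a point for each of 3 transcriptomes and each of 2 polysome pools per stage and lines through the means. All 6 genes rose from the 2-cell to the 8-cell stage, and TAF1D is at 0 CPM in 8-cell polysomes A and at 10.2 CPM in B.

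The test of the difference itself asks whether the polysome change from the 2-cell to the 8-cell stage differed from the transcriptome change. It passed for 7 members, 3 with a larger polysome change (3.45% of all genes) and 4 with a smaller one (8.72% of all genes). This test, too, does not set polysomes apart from other fractions of the gradient. POLR2B rose more in polysome pools than in transcriptomes, by 2.19 on the log2 scale (SE 0.69, adjusted p = 0.0393). Its mean also rose outside polysomes, from 3.03 to 27.5 CPM in F1 to F2, from 2.68 to 36.8 CPM in F3 to F5 and from 2.50 to 39.5 CPM in F6 to F7. TAF5 went from 205, 244 and 185 CPM to 85.4, 158 and 110 CPM in transcriptomes and from 40.9 and 41.9 CPM to 51.6 and 86.1 CPM in pools (difference 1.58, SE 0.45, adjusted p = 0.0248). POLR2C, of the assembly platform, went from 271, 226 and 263 CPM to 180, 113 and 137 CPM in transcriptomes and from 202 and 188 CPM to 230 and 314 CPM in pools (difference 1.30, SE 0.41, adjusted p = 0.0412). For the latter genes neither change passed on its own, and the values moved in opposite directions.

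MED26, which links Mediator to elongation factors, had the difference that held most often, in 16 of 17 alternatives. Its pools fell from 86.4 and 82.3 CPM to 13.8 and 19.7 CPM (log2 fold -2.33, SE 0.60, adjusted p = 0.00288), while its transcriptomes were at 3.73, 2.24 and 6.17 CPM and then at 4.46, 9.50 and 4.0 CPM (difference -2.89, SE 0.76, adjusted p = 0.0144). MED12 rose in transcriptomes from 1.67, 2.88 and 2.56 CPM to 8.91, 18.8 and 10.2 CPM, and its pools held 9.06 and 6.58 CPM and then 2.67 and 9.19 CPM (difference -2.81, SE 0.89, adjusted p = 0.0395). GTF2H5 rose in transcriptomes from 28.7, 31.3 and 43.6 CPM to 69.1, 139 and 128 CPM with pools at 152 and 141 CPM and then 171 and 120 CPM (difference -1.71, SE 0.53, adjusted p = 0.0373). GTF2IRD1 rose in transcriptomes from 0.152, 0.160 and 0.150 CPM to 4.20, 2.60 and 4.18 CPM, with pools at 0.667 and 0.923 CPM and then 0.0410 and 1.82 CPM (difference -4.27, SE 1.38, adjusted p = 0.0441). For MED12, GTF2H5 and GTF2IRD1 the 8-cell pools overlapped the 2-cell pools. The count of 7 became 1 without 2-cell polysomes A, without 2-cell polysomes B or without 2-cell transcriptome B, 18 without 8-cell polysomes B, and 4 with the letters as a replicate block, so the number rests on single libraries.

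**Figure D4:**
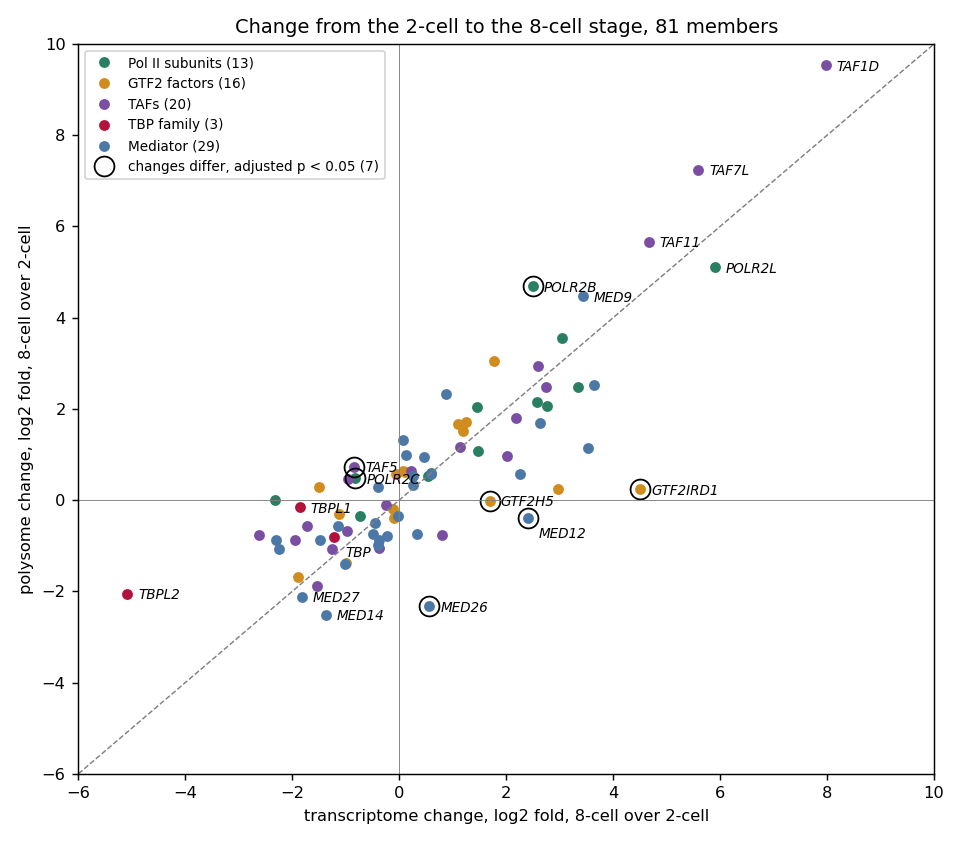
Log2 fold from the 2-cell to the 8-cell stage in transcriptomes (x axis) and in polysome pools (y axis) for the 81 members, coloured by role, with circles around the 7 members whose changes differ at an adjusted p below 0.05 and a dashed line of equal change. TAF1D, TAF7L, TAF11 and POLR2L lie far to the upper right, TBPL2 far to the left at -5.09 in the transcriptome, and no member with both calls lies in the upper left or lower right; the polysome folds of TAF1D and TAF7L were fitted against 2-cell pools with 0 counts.

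From GV to MII oocytes fewer members changed than at genome activation. In the transcriptome 10 members rose and 17 fell (6.61% and 10.5% of all genes), and the split was 15 and 16 with DESeq2 size factors, which moved the median over all genes by 0.12. Without GV transcriptome A it was 4 and 16, without GV transcriptome C 3 and 16 and without MII transcriptome C 6 and 13. The largest changes were those of GTF2H3 (log2 fold 2.23) and MED13 (1.84, lost without GV transcriptome C) upward and of the stalk subunit POLR2G (-3.30) and of POLR2I (-2.77) downward. POLR2G fell from 406, 637 and 479 CPM to 70.1, 50.9 and 33.7 CPM. In polysomes 6 members rose and 1 fell (3.03% and 2.33% of all genes). MED25 rose by 1.81 (lost without GV polysomes A, GV polysomes B or MII polysomes B) and MED27 by 1.80, from 444 and 444 CPM to 1771 and 1330 CPM, and GTF2H2 fell by 2.25 on the log2 scale. The split was 2 and 1 without GV polysomes A, 3 and 1 without GV polysomes B, 7 and 2 without MII polysomes A and 2 and 3 without MII polysomes B, and with only the groups compared 0 members passed.

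From MII to the 2-cell stage 6 members rose and 9 fell in the transcriptome (6.0% and 5.96% of all genes), or 3 and 7 without MII transcriptome C. TAF6L (log2 fold 2.55) and MED22 (2.42) rose most, and MED29 (-3.04) and POLR2L (-2.90) fell most. In polysomes 3 rose and 8 fell (3.37% and 5.14% of all genes), with TAF5L (1.91) and MED17 (1.81, lost without any 1 of the 4 pools, with a replicate block and with no filter on low counts) up and POLR2B (-4.54) and POLR2L (-3.27) down. The call of TAF5L was lost without MII polysomes A or 2-cell polysomes A. Without MII polysomes A, MII polysomes B, 2-cell polysomes A and 2-cell polysomes B in turn, 0, 1, 0 and 1 members rose and 9, 5, 4 and 8 fell, and with only the groups compared 3 members passed.

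From the 8-cell to the Morula stage few members changed in the transcriptome and more in polysomes. In the transcriptome 3 members rose and 3 fell (6.60% and 7.75% of all genes), or 1 and 3 with DESeq2 size factors, which moved the median over all genes by -0.13, and 1 and 3 without 8-cell transcriptome C. TAF6L rose (1.86), GTF2A1L rose (1.16, lost with those size factors and without 8-cell transcriptome A, 8-cell transcriptome C or Morula transcriptome C), and TBPL1 (-1.77) and GTF2H2 (-1.75) fell. In polysomes 7 rose and 18 fell (18.5% and 17.7% of all genes), but the split was 12 and 12 without 8-cell polysomes B, 4 and 13 without 8-cell polysomes A, 3 and 10 without Morula polysomes A and 12 and 19 without Morula polysomes B, and 0 members passed with only the groups compared. MED11 rose (2.63, lost without 8-cell or Morula polysomes A), and GTF2IRD1 rose by 2.71, a call lost without 8-cell polysomes A, with a replicate block, with fractions scaled to the same total and with only the groups compared, and stood at -0.10 without Morula polysomes B. TBPL2 fell to 0 in both pools, at least 90.0-fold below 8-cell pools against the floor of 3 counts, which rests on 8-cell polysomes B. TAF9B fell with a ratio of 192 and a counting interval of 34.1 to 7623.

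From Morula to Blastocyst more members fell than rose in the transcriptome. Here 4 members rose and 24 fell, against 10.2% and 11.4% of all genes, with a median log2 fold of -0.56 over the members and -0.01 over all genes. Pol II genes took 9 of the 24 falls with 1 rise, POLR2A (log2 fold 1.25), and their median was -1.50. TAF13 fell from 98.9, 94.2 and 132 CPM to 6.47, 6.63 and 12.2 CPM (log2 fold -3.68, SE 0.41, adjusted p = 8.99e-07), and GTF2H3 as given above. MED22 (2.13) and MED25 (2.13) rose. In polysomes 3 members rose and 7 fell (5.79% and 8.13% of all genes), and the split was 6 and 9 without Morula polysomes A, 9 and 12 without Morula polysomes B, 1 and 6 without Blastocyst polysomes A and 3 and 3 without Blastocyst polysomes B, with 0 calls when only the groups compared were fitted. MED20 fell from 77.8 and 27.2 CPM to 4.96 and 4.13 CPM (log2 fold -3.53, SE 0.59, adjusted p = 0.000482), and GTF2E1 fell by 3.67 on the log2 scale but stood at 1.70 without Morula polysomes A and lost its call without Blastocyst polysomes B, and its Morula pools held 147 and 1.81 CPM. GTF2IRD2 was at least 17.9-fold higher in Blastocyst pools against a Morula floor of 3 counts (lost without Blastocyst polysomes A or either Morula pool), and TAF9B rose with a ratio of 47.8 and a counting interval of 8.10 to 1934, a call lost without Blastocyst polysomes A.

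Members had their highest CPM both outside and inside polysomes within the gradients. Each fraction library is scaled to its own total, so CPM does not show where most of a gene's mRNA lies. By mean CPM, 31 of 81 members were highest in F1 and F2 (free RNA) in GV oocytes, 11 in F3 to F5 (monosomes), 9 in F6 and F7 and 30 in F8 to F10. At the 8-cell stage these numbers were 25, 14, 12 and 30, and in Blastocyst embryos 20, 22, 18 and 21. The same count over all genes was not made, so these numbers do not set the members apart from other genes. Polysome pools were tested against monosome pools, the sum of F3 to F5, with gradient as a block, a comparison that shares its polysome pools with the one against the transcriptome. TAF7L did not pass the filter of this model, which left 80 members among 14873 genes.

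At the 8-cell stage 8 members passed between these pools, 6 higher in polysomes and 2 lower, against 8.74% of all genes in either direction. Higher in polysomes were MED12 (log2 fold 6.78), GTF2H2 (3.07), GTF2H1 (2.82), POLR2L (2.77), GTF2A2 (2.06) and POLR2F (1.59), and lower were MED24 (-3.37) and MED15 (-1.80). POLR2L averaged 90.4 CPM over F3 to F5 and 595 CPM over F8 to F10 in gradient A, and 57.9 and 373 CPM in gradient B. MED15 averaged 369 and 126 CPM in A and 281 and 67.5 CPM in B, so its CPM was higher in monosomes than in polysomes, while against the transcriptome its polysome level was higher by 5.87 on the log2 scale. For GTF2H2 the reverse held, with 3.29 and 62.2 CPM in A and 15.2 and 74.3 CPM in B beside a polysome level lower than the transcriptome by -2.29. MED12 was near the floor in monosomes, at 0 CPM in A and 0.136 CPM in B, against 2.57 and 9.37 CPM in polysomes. Without gradient A 0 of the 8 members passed at the 8-cell stage, and without gradient B 10 members did, MED15 not among them.

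At the other 5 stages 0 members passed by the edgeR quasi-likelihood test, against 0.269% of all genes in GV, 0.202% in MII, 0% at the 2-cell stage, 1.41% in Morula and 1.31% in Blastocyst embryos. At an unadjusted p below 0.05 there were 9 members in GV, 9 in MII, 13 at the 2-cell stage, 13 in Morula and 10 in Blastocyst embryos. DESeq2 called 2, 6, 4, 10 and 8 members in the same order, and the likelihood ratio test 0, 2, 1, 4 and 5, so a count of 0 does not show that no member differed.

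**Figure D5:**
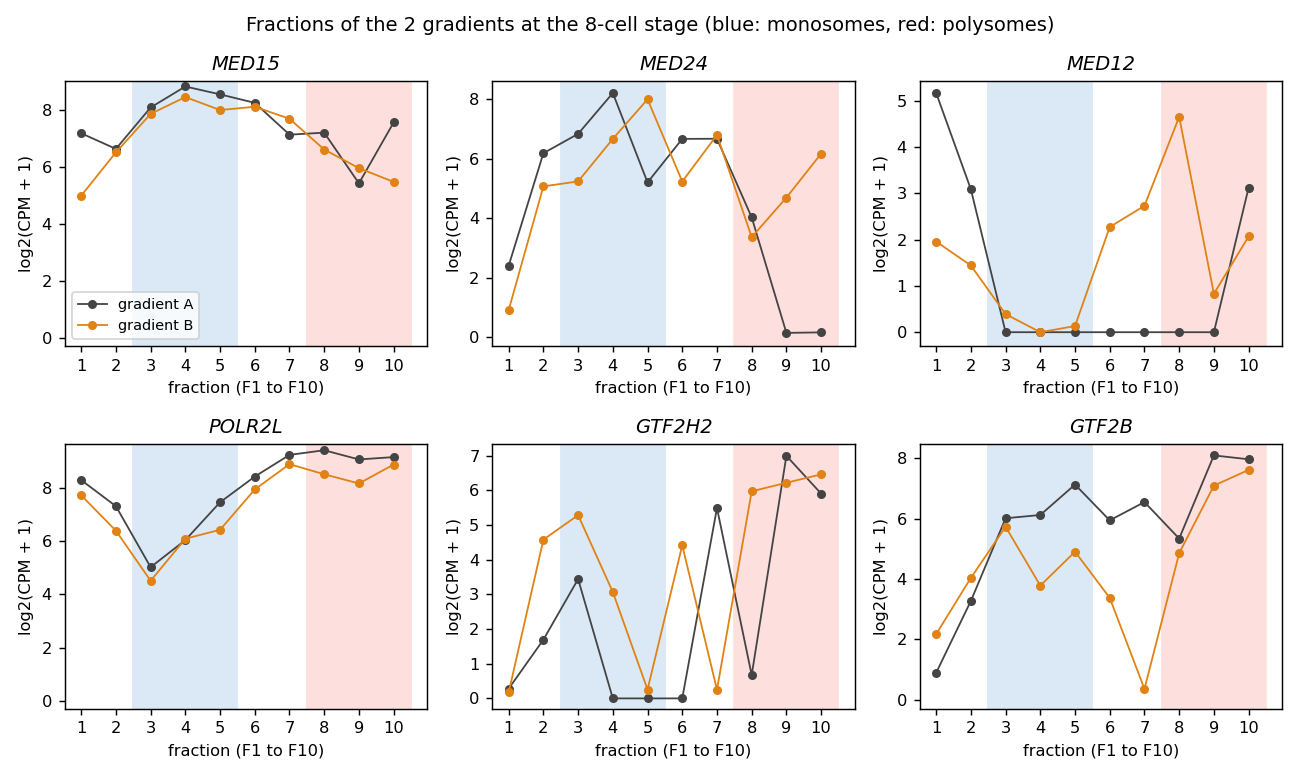
Level as log2(CPM + 1) of MED15, MED24, MED12, POLR2L, GTF2H2 and GTF2B in fractions F1 to F10 of 8-cell gradients A and B, with a line for each gradient and monosome and polysome fractions shaded. By the mean CPM of these fractions MED15 and MED24 are higher in F3 to F5 in both gradients and POLR2L and GTF2H2 in F8 to F10, while single fractions of MED12, MED24 and GTF2H2 scatter widely.

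Other genes of the transcription pathway were counted beside the members at genome activation, where 26.6% of all genes rose and 23.5% fell in the transcriptome and 21.0% rose and 25.2% fell in polysomes. None of these lists was tested against those shares. Of 29 genes for pausing and elongation, which act after the polymerase has started, 8 rose and 8 fell in the transcriptome and 11 rose and 4 fell in polysomes from the 2-cell to the 8-cell stage. Of 7 genes for Pol II assembly and its C-terminal domain phosphatases, 2 rose and 2 fell in the transcriptome and 2 rose and 0 fell in polysomes. Of 12 SAGA partners, 1 rose and 6 fell in the transcriptome and 0 rose and 3 fell in polysomes. Of 5 Pol I genes, 1 rose and 1 fell in each kind of library, and of 10 Pol III genes, 2 rose and 1 fell in the transcriptome and 2 rose and 2 fell in polysomes.

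The library kit does not mark strand, and the span of 20 of the 81 members overlaps another protein-coding gene in RefSeq, in which all 81 were found. Reads of POLR2B and IGFBP7, POLR2C and DOK4, POLR2I and OVOL3, MED16 and CFD, MED20 and USP49, MED24 and THRA, MED25 and FUZ, or MED31 and KIAA0753 could not be told apart in exons that overlap. The same holds for TAF4 and CDH4, TAF5 and ATP5MK, TAF6 and AP4M1, TAF6L and TMEM179B, TAF9 and AK6, TAF9B and PGK1, TAF10 and ILK, TBPL1 and SLC2A12, GTF2E1 and RABL3, GTF2E2 and SMIM18, and GTF2F2 and KCTD4. MED12L overlaps 5 genes.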

How the data were processed

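Per the labels and the methods, libraries were made with a SMART-Seq v4 kit and Nextera XT, and the authors ran Salmon against Ensembl bovine genes (ARS-UCD1.2 in the methods, UMD3.1 in the submitters' processing notes; versions are not given in the sources used here). The deposited table holds expected counts, not normalized, for 138 libraries, of which 11.7% of values are not whole. Samples were grouped by stage, fraction and letter from the column names, and 0 columns were left unmapped. Among 78 replicate pairs 0 were identical, and the lowest chi-square per degree of freedom was 13.4.

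Counts of F8 to F10 (polysomes) or F3 to F5 (monosomes) were summed per gradient and rounded. edgeR 4.0.16 (R 4.3.3) gave TMM factors, the filterByExpr filter and quasi-likelihood F tests, two-sided, with Benjamini-Hochberg adjustment over all genes tested. The study used the likelihood ratio test, kept as an alternative. A call needs an adjusted p below 0.05 and, between stages, a fold above 2. The model of 30 libraries has 12 groups, and that of polysome against monosome pools has gradient as a block. Alternatives were DESeq2 1.42.0, its size factors, no filter, only the groups compared, fractions scaled to the same total, a replicate block and leaving out each library. No pairing by letter was seen: deviations from group means of 37 same-letter pairs had r from -0.345 to 0.130, with 1 above 0.1. The A and B pairs of a polysome change mirror each other and give the same r. With so few libraries per group this check cannot exclude a pairing. Tables and figures used Python 3.11.15, numpy 2.4.6, pandas 2.3.3 and matplotlib 3.10.9. The tests were tested on simulated data.

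TBP, TBPL1, TBPL2, POLR2A, GTF2B and paralog pairs were named whatever their values. At the 2-cell to 8-cell step and in 8-cell polysomes against transcriptome the 4 called members with the largest fold in each direction were named, and elsewhere 2. Others with values were chosen after their values were seen, as examples of their role group. Floors are 3 counts over the group, and intervals and floors cover counting error only. Members and lists were chosen with earlier results of these data known. Gene sequences and other transcript features were not analysed here.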

Additional observations from a re-analysis of the deposited data

Results flagged for a closer look

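The change from the 2-cell to the 8-cell stage differed between polysomes and transcriptome, by a test of the difference itself, for 7 members. The test does not set polysomes apart from other fractions. POLR2B rose in those as well, while the mean of MED26 fell in polysomes and not in the other fractions. The log2 polysome change minus the log2 transcriptome change was 2.19 for POLR2B, 1.58 for TAF5 and 1.30 for POLR2C, and it was -4.27 for GTF2IRD1, -2.89 for MED26, -2.81 for MED12 and -1.71 for GTF2H5. Of 17 alternatives the call held in 16 for MED26, 11 for TAF5, 10 for POLR2B, 7 for GTF2H5, 6 for MED12, 6 for GTF2IRD1 and 5 for POLR2C. In 8-cell embryos 15 of 81 members differed by over 4-fold between the polysome pools of gradients A and B, against 1 of 81 at the 2-cell stage, and the part of this spread in the 7 results was not tested.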

How the results depend on the processing

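Of 150 alternative counts of called members that left out no library, 129 lay within 1.5 times the reported count. With only the groups compared, the polysome change called 0 members (GV to MII), 3 (MII to 2-cell), 13 (2-cell against 8-cell), 0 (8-cell against Morula) and 0 (Morula against Blastocyst), where fewer libraries estimate the spread, and the difference of changes called 2. That difference called 4 members with no filter on low counts and 4 with fractions scaled to the same total. Between polysome and monosome pools DESeq2 called 2 members in GV, 6 in MII, 4 at 2-cell, 31 at 8-cell, 10 in Morula and 8 in Blastocyst embryos, and the likelihood ratio test 2 in MII, 1 at 2-cell, 23 at 8-cell, 4 in Morula and 5 in Blastocyst embryos. Without the block, 1 member passed in Blastocyst embryos. The causes were not tested.

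With the letter as a replicate block, the difference of changes called 4 members in place of 7, and the other 16 counts stayed within 1.5 times. No pairing of libraries by letter was seen.

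Leaving out 1 library gave 1 to 18 calls for the difference of changes, and for the polysome change 3 to 9 (GV to MII), 4 to 9 (MII to 2-cell), 13 to 31 (8-cell against Morula) and 6 to 21 (Morula against Blastocyst). Leaving out 1 gradient gave 0 to 10 calls between pools at 8-cell, 0 to 2 in Morula and 0 to 1 in Blastocyst embryos. Of 1022 alternative fold changes of named members, 890 kept their call, 127 lost it and 5 turned: without 8-cell polysomes B the log2 folds of TAF1D and TAF7L (2-cell against 8-cell) and of TBPL2 (8-cell against Morula) were 0, GTF2IRD1 (8-cell against Morula) was at -0.10 without Morula polysomes B, and GTF2E1 (Morula against Blastocyst) at 1.70 without Morula polysomes A. The other end of the range over left-out pools was 10.50 for TAF1D, 8.20 for TAF7L, -10.17 for TBPL2, 7.01 for GTF2IRD1 and -4.86 for GTF2E1, folds fitted against pools at or near 0 except for GTF2E1. With 2 gradients per stage, and pools with 0 or 1 count for TAF1D, TAF7L, TAF9B and GTF2IRD2, a polysome change that was not called is not shown to be absent, whether small or large.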
